A study of Mus musculus with 20 samples.

Results

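The 10 genes described here mark pluripotent mouse stem cells: *Pou5f1*, *Nanog*, *Esrrb*, *Zfp42*, *Klf4*, *Tdgf1*, *Utf1*, *Dppa4*, *Dppa5a* and *Lin28a*. They were taken by name out of 24421 gene symbols in each file, with earlier results of these data known. All 10 passed the filter on low counts that kept 14792 genes for the tests. The filter used the libraries of both lines, and several of the 10 genes were high in the NIL libraries. The cells were motor neurons made from mouse embryonic stem (ES) cells, and their RNA was read in 20 libraries that form 10 groups of 2. The NIP groups, labelled cranial motor neurons, and the NIL groups, labelled spinal motor neurons, had the same 5 conditions: 0 h, 12 h with 20 µM cyclopiazonic acid (CPA), 12 h without CPA, 36 h with 20 µM CPA and 36 h without CPA. In this field NIP stands for Neurog2, Isl1 and Phox2a expressed together and NIL for Neurog2, Isl1 and Lhx3. CPA blocks the SERCA calcium pumps of the endoplasmic reticulum (ER) and causes ER stress. Day 2 motor neurons were treated. They were grown in a Neurobasal medium with B27, fetal bovine serum and growth factors. The sample titles give the later times as 12 h and 36 h, another label gives 6 h and 12 h, and the titles were followed. Each group holds a library titled replicate 2 and a library titled replicate 1. The labels do not say whether these came from separate cultures, so a p-value reflects only how far these libraries spread. The labels used here describe neither the stem cell clones nor a step that removes undifferentiated cells. In bulk RNA, fewer cells of a type and less RNA per cell cannot be told apart.

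The core of the pluripotency network is a set of transcription factors that bind each other's genes and keep a stem cell undifferentiated. *Pou5f1* encodes the POU factor Oct4, which binds DNA next to Sox2 on a shared element, and *Nanog* encodes a homeobox factor. *Esrrb* (an orphan nuclear receptor), *Klf4* (a Krüppel-like zinc finger factor) and *Zfp42* (the zinc finger protein Rex1) belong to the naive state of mouse stem cells. *Utf1* and *Dppa4* encode chromatin proteins, *Dppa5a* an RNA-binding protein and *Tdgf1* the Nodal co-receptor Cripto. *Lin28a* encodes an RNA-binding protein that blocks the maturation of let-7 microRNAs, and it is also used by early neural progenitors. *Klf4* is also used by epithelia and other differentiated cells. Neurons normally switch the core factors off.

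The element bound by Oct4 together with Sox2 is part of what links these genes, so the promoter windows of 2 members that hold an Oct motif are shown, both from RefSeq on GRCm38.p6, from 250 bases before to 50 bases after a gene's start and written along the gene's own strand. The *Nanog* window lies at chr6:122707239-122707538 (plus strand). Its capitals mark a match on the reverse strand to the composite Sox and Oct element, which is the Sox motif CNTTGT, 1 base of any kind and the Oct core ATGCAAA. The *Zfp42* window lies at chr8:43306960-43307259 (minus strand), and its capitals mark a reverse match to the Oct core ATGCAAA.
Nanog promoter: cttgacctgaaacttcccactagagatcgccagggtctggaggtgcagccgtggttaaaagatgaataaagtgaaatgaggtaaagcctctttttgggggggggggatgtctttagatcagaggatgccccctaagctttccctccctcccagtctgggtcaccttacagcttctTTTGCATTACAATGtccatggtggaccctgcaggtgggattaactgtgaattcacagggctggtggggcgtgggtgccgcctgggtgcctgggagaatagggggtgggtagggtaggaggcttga
Zfp42 promoter: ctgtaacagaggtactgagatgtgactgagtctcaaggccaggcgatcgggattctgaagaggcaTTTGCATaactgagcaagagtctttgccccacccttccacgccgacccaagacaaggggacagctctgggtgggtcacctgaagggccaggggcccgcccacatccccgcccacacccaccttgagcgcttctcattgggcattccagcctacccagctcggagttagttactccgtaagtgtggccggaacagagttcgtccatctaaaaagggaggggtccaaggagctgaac
On either strand, the composite was found in 3 of 32544 promoter windows of all genes (0.00922%), and 2 of these are overlapping windows of *Nanog*. The Oct core alone was in 1514 windows (4.65%) and the Sox motif in 13391 (41.1%). The composite contains both shorter motifs. Among the 8 members with windows in the table, *Nanog* and *Zfp42* held the Oct core. A match is a description of the letters and does not show that a factor binds there.

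Gene reads per library ran from 7996454 to 30321152, and *Rn45s*, the ribosomal RNA precursor gene, took 5.18% to 38.6% of them. A pair of libraries stood apart with the highest shares, NIP 36 h replicate 1 (38.6%) and NIL 36 h with CPA replicate 2 (38.3%). Levels are given as CPM, the read count relative to a library size scaled by TMM so that most genes stay level between libraries, and the plain total would give 0.654 to 1.17 times these values. The labelled cell type was checked on markers, as medians over the 5 libraries of a line and replicate number. *Isl1*, a motor neuron factor, was at 123 CPM in NIP replicate 2, 167 CPM in NIP replicate 1, 142 CPM in NIL replicate 2 and 222 CPM in NIL replicate 1. *Isl1* is itself part of the NIP and the NIL set of factors, so its level cannot check the cell type. *Slc18a3*, the vesicular acetylcholine transporter, was at 139 and 153 CPM in NIP replicates 2 and 1, and at 209 and 323 CPM in NIL replicates 2 and 1. *Mnx1*, a factor of spinal motor neurons, was near absent in NIP (0.336 and 0.164 CPM in replicates 2 and 1) and present in NIL (56.0 and 60.8 CPM). *Chat*, another motor neuron marker, was lower, at 7.41 and 7.38 CPM in NIP replicates 2 and 1, and at 15.3 and 29.3 CPM in NIL replicates 2 and 1. Its lowest library was at 5.76 CPM, so RNA of this marker was present in every group, beside the stem cell genes described next.

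*Pou5f1* (chr17:35506018-35510772, plus strand, GRCm38) was low in NIP and highest in NIL replicate 2. *Pou5f1* in NIP replicate 2 measured 0.993 CPM at 0 h, 1.05 with and 0.929 without CPA at 12 h, and 1.68 with and 1.97 without CPA at 36 h, against 0.217 at 0 h, 0.0960 with and 0.263 without CPA at 12 h, and 0.169 with and 0.596 without CPA at 36 h in NIP replicate 1. These NIP values rest on 11 to 43 reads in replicate 2 and on 2 to 8 reads in replicate 1. At the lowest, 2 reads at 12 h with CPA, the exact 95% Poisson interval was 0.0116 to 0.347 CPM. Such intervals cover counting error only. *Pou5f1* in NIL replicate 2 measured 35.1 CPM at 0 h, 24.6 with and 48.9 without CPA at 12 h, and 63.8 with and 44.8 without CPA at 36 h, against 2.52 at 0 h, 1.97 with and 1.73 without CPA at 12 h, and 4.63 with and 1.88 without CPA at 36 h in NIL replicate 1. Every NIL replicate 2 library was thus more than 10 times above its replicate 1 partner. By group, the mean was 34.2 ± 41.8 CPM (SD, n = 2) in NIL at 36 h with CPA, followed by 25.3 ± 33.3 in NIL at 12 h without CPA, 23.3 ± 30.3 in NIL at 36 h without CPA, 18.8 ± 23.0 in NIL at 0 h and 13.3 ± 16 in NIL at 12 h with CPA. The NIP groups followed at 1.28 ± 0.973 CPM (36 h without CPA), 0.927 ± 1.07 (36 h with CPA), 0.605 ± 0.549 (0 h), 0.596 ± 0.471 (12 h without CPA) and 0.572 ± 0.674 (12 h with CPA). No neighbours in this order differed by more than the larger SD of the 2 groups. With n = 2 that SD comes only from the difference between replicate 2 and replicate 1. Within a replicate number the lines stayed apart: the highest group mean of NIP came from 1.97 and 0.596 CPM (replicates 2 and 1), and the lowest of NIL from 24.6 and 1.97 CPM.

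*Nanog* (chr6:122707489-122714633, plus strand) was likewise low in NIP and highest in NIL replicate 2. *Nanog* in NIP replicate 2 had 0.993 CPM at 0 h, 0.629 with and 0.511 without CPA at 12 h, and 1.01 with and 1.19 without CPA at 36 h, against 0.0543 at 0 h, 0.0480 with and 0.0329 without CPA at 12 h, and 0.0846 with and 0 without CPA at 36 h in NIP replicate 1. All 5 NIP replicate 1 libraries together held 5 *Nanog* reads, against 78 reads in the NIP replicate 2 libraries. The library at 0, NIP 36 h without CPA replicate 1, allows up to 0.357 CPM (3 reads). *Nanog* in NIL replicate 2 had 18.2 CPM at 0 h, 13.1 with and 21.1 without CPA at 12 h, and 30.9 with and 21.9 without CPA at 36 h, against 1.56 at 0 h, 0.881 with and 1.02 without CPA at 12 h, and 1.33 with and 0.651 without CPA at 36 h in NIL replicate 1. *Nanog* reads numbered 1073 in the NIL replicate 2 libraries and 139 in NIL replicate 1, and these groups did not overlap.

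*Esrrb* (chr12:86361117-86521628, plus strand) separated the lines in full. *Esrrb* in NIP replicate 2 was at 4.96 CPM at 0 h, 2.89 with and 2.88 without CPA at 12 h, and 1.95 with and 2.80 without CPA at 36 h, against 2.55 at 0 h, 1.78 with and 2.46 without CPA at 12 h, and 0.846 with and 0.357 without CPA at 36 h in NIP replicate 1. *Esrrb* in NIL replicate 2 was at 31.2 CPM at 0 h, 28.8 with and 42.1 without CPA at 12 h, and 57.4 with and 40.7 without CPA at 36 h, against 12.3 at 0 h, 11.5 with and 13.3 without CPA at 12 h, and 10.4 with and 13.4 without CPA at 36 h in NIL replicate 1. The highest NIP library (4.96 CPM) stayed below the lowest NIL library (10.4 CPM), so the lines did not overlap in either replicate number.

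*Zfp42* (chr8:43295063-43306980, minus strand) was low across NIP and split by replicate number in NIL. *Zfp42* in NIP replicate 2 read 1.81 CPM at 0 h, 2.22 with and 2.46 without CPA at 12 h, and 2.56 with and 1.61 without CPA at 36 h, against 0.922 at 0 h, 0.720 with and 1.51 without CPA at 12 h, and 1.78 with and 1.55 without CPA at 36 h in NIP replicate 1. *Zfp42* in NIL replicate 2 read 15 CPM at 0 h, 20.1 with and 19.4 without CPA at 12 h, and 34.7 with and 15.7 without CPA at 36 h, against 2.1 at 0 h, 2.90 with and 1.60 without CPA at 12 h, and 6.34 with and 1.85 without CPA at 36 h in NIL replicate 1. In replicate 1 the lines overlapped, with NIP reaching 1.78 CPM and NIL starting at 1.60 CPM.

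*Klf4* (chr4:55527143-55532466, minus strand) spanned the widest range of the members in CPM. *Klf4* in NIP replicate 2 reached 28.0 CPM at 0 h, 49.7 with and 22.2 without CPA at 12 h, and 99.6 with and 27.5 without CPA at 36 h, against 9.17 at 0 h, 10.2 with and 7.69 without CPA at 12 h, and 6.60 with and 6.79 without CPA at 36 h in NIP replicate 1. *Klf4* in NIL replicate 2 reached 67.4 CPM at 0 h, 161 with and 80.9 without CPA at 12 h, and 381 with and 144 without CPA at 36 h, against 16.6 at 0 h, 37.0 with and 22.3 without CPA at 12 h, and 138 with and 28.8 without CPA at 36 h in NIL replicate 1. The highest level of all libraries was in NIL at 36 h with CPA, and the replicate numbers overlapped within NIL because of the 138 CPM of replicate 1 in that condition.

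*Tdgf1* (chr9:110939603-110946158, minus strand) and *Utf1* (chr7:139943789-139945112, plus strand) were near the detection floor in NIP. *Tdgf1* in NIP replicate 2 stood at 0.903 CPM at 0 h, 0.336 with and 0.279 without CPA at 12 h, and 0.337 with and 0.550 without CPA at 36 h, against 0.217 at 0 h, 0.336 with and 0.0329 without CPA at 12 h, and 0.212 with and 0.119 without CPA at 36 h in NIP replicate 1. *Tdgf1* in NIL replicate 2 stood at 9.74 CPM at 0 h, 8.21 with and 15.7 without CPA at 12 h, and 22.9 with and 9.44 without CPA at 36 h, against 0.892 at 0 h, 0.462 with and 0.476 without CPA at 12 h, and 1.21 with and 0.398 without CPA at 36 h in NIL replicate 1. The NIL replicate 2 values lay above 8 CPM throughout and the other 15 libraries at or under 1.21 CPM. *Utf1* in NIP replicate 2 gave 0.632 CPM at 0 h, 0.294 with and 0.232 without CPA at 12 h, and 0.673 with and 0.321 without CPA at 36 h, against 0.0543 at 0 h, 0.0480 with and 0.0657 without CPA at 12 h, and 0 with and 0 without CPA at 36 h in NIP replicate 1. Both zeros are replicate 1 libraries at 36 h, where 3 reads would be 0.127 CPM with CPA and 0.357 CPM without. *Utf1* in NIL replicate 2 gave 11.4 CPM at 0 h, 9.95 with and 13.8 without CPA at 12 h, and 22.1 with and 17.9 without CPA at 36 h, against 0.446 at 0 h, 0.797 with and 0.815 without CPA at 12 h, and 1.14 with and 0.253 without CPA at 36 h in NIL replicate 1. *Utf1* thus reached 9.95 CPM or more in all NIL replicate 2 libraries and 1.14 CPM at most elsewhere.

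*Dppa5a* (chr9:78367052-78368177, minus strand) and *Dppa4* (chr16:48283733-48294237, plus strand) share a name stem. Both were higher in replicate 2 in all 10 pairs of libraries with the same line, time and treatment. Between the lines they differed, and only *Dppa5a* was lower in NIP in every condition of both replicate numbers. *Dppa5a* in NIP replicate 2 was found at 2.89 CPM at 0 h, 0.629 with and 1.16 without CPA at 12 h, and 1.82 with and 1.93 without CPA at 36 h, against 0.543 at 0 h, 0.0480 with and 0.164 without CPA at 12 h, and 0.0423 with and 0 without CPA at 36 h in NIP replicate 1. *Dppa5a* in NIL replicate 2 was found at 50.8 CPM at 0 h, 14.3 with and 45.5 without CPA at 12 h, and 37.5 with and 35.5 without CPA at 36 h, against 2.29 at 0 h, 1.34 with and 1.22 without CPA at 12 h, and 2.35 with and 0.977 without CPA at 36 h in NIL replicate 1. *Dppa5a* was at 0 in the same library as *Nanog*, with the same floor, and its replicate numbers did not overlap in either line. *Dppa4* in NIP replicate 2 was found at 10.0 CPM at 0 h, 3.94 with and 7.43 without CPA at 12 h, and 3.97 with and 3.67 without CPA at 36 h, against 5.37 at 0 h, 3.31 with and 3.19 without CPA at 12 h, and 2.67 with and 2.74 without CPA at 36 h in NIP replicate 1. *Dppa4* in NIL replicate 2 was found at 7.96 CPM at 0 h, 4.10 with and 6.85 without CPA at 12 h, and 6.16 with and 4.38 without CPA at 36 h, against 1.75 at 0 h, 1.22 with and 0.883 without CPA at 12 h, and 1.65 with and 0.796 without CPA at 36 h in NIL replicate 1. *Dppa4* reached its highest level in NIP at 0 h, and its lowest in NIL replicate 1. Both genes have close copies: 38.6% of the 50-base stretches of *Dppa5a* exons and 31.3% of those of *Dppa4* also occur in other genes, against 10.1% or less in the other members, so reads that map to several places may be missing from them. *Pou5f1* also overlaps *Gm19553* on the opposite strand over 14.1% of its exon length and *Lin28a* overlaps *Gm13061* over 5.86%, and without a stated strand setting such reads cannot be told apart.

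*Lin28a* (chr4:134003330-134018841, minus strand) was abundant in every library. *Lin28a* in NIP replicate 2 held 240.4 CPM at 0 h, 104 with and 195 without CPA at 12 h, and 99.2 with and 170.1 without CPA at 36 h, against 192 at 0 h, 72.9 with and 201 without CPA at 12 h, and 82.4 with and 149 without CPA at 36 h in NIP replicate 1. *Lin28a* in NIL replicate 2 held 219 CPM at 0 h, 152 with and 186 without CPA at 12 h, and 98.5 with and 126 without CPA at 36 h, against 268 at 0 h, 109 with and 169 without CPA at 12 h, and 106 with and 98.4 without CPA at 36 h in NIL replicate 1. Its values overlapped between lines and between replicate numbers, and in NIP the CPA libraries were the lowest.

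**Figure D1:**
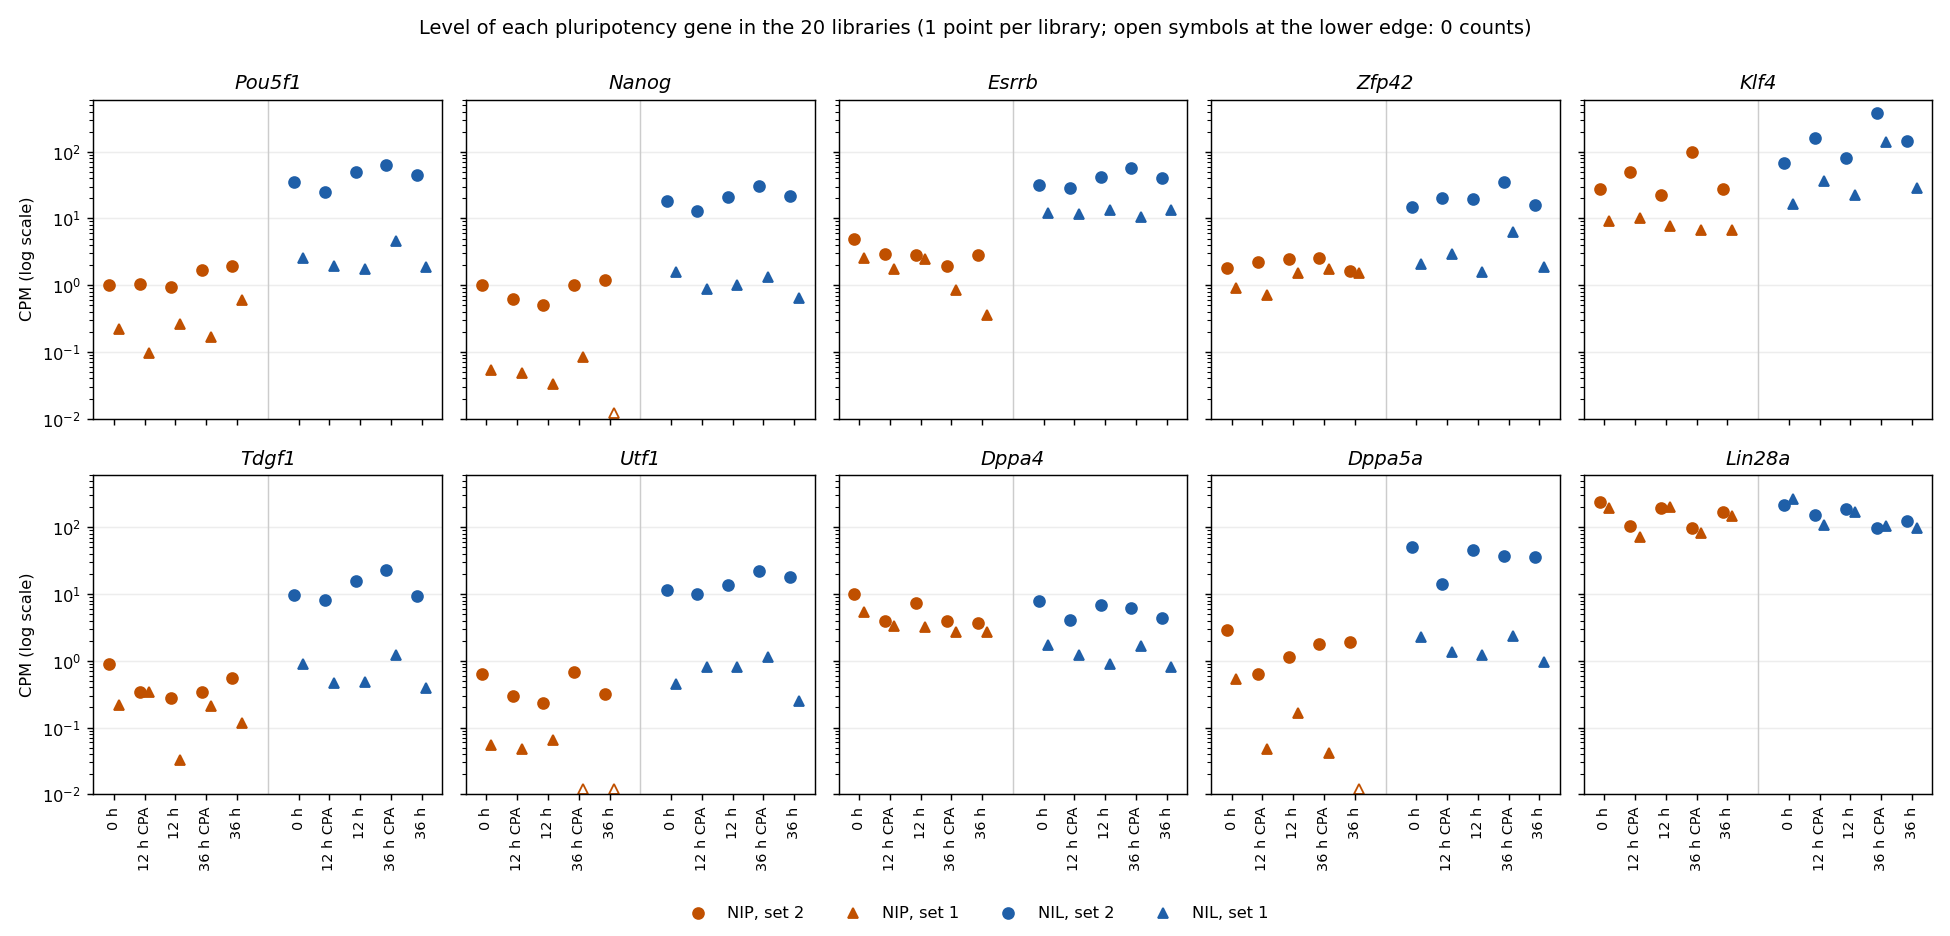
Level of each gene in every library, one panel a gene, with CPM on a log axis and the 5 conditions of NIP left of those of NIL. Points are single libraries, coloured by line, with circles for replicate 2 (set 2) and triangles for replicate 1 (set 1). In NIL, *Pou5f1* lay between 24.6 and 63.8 CPM in replicate 2 and between 1.73 and 4.63 CPM in replicate 1, while *Lin28a* lay in one band in all 20 libraries.

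Summed over the 10 genes, the level was 166 to 292 CPM in NIP replicate 2, 89.4 to 217 CPM in NIP replicate 1, 436 to 755 CPM in NIL replicate 2 and 147 to 309 CPM in NIL replicate 1. To compare genes with each other, CPM was divided by the kilobases of merged exons. On that scale *Lin28a* made up a median 70.8% of the members' summed level in NIP replicate 2 and 85.3% in NIP replicate 1, with 42.6 and 37.3 CPM per kb, and *Klf4* followed in both (9.18 and 2.52 CPM per kb). In NIL replicate 2 *Dppa5a* led (60.6 CPM per kb, 28.5%), ahead of *Klf4* (47.1, 23.4%), *Lin28a* (38.1, 21.5%) and *Pou5f1* (19.9, 9.13%). In NIL replicate 1 *Lin28a* led again (27.3 CPM per kb, 60.3%), with *Klf4* (9.46, 23.2%) next and *Pou5f1* at 0.877 CPM per kb. These are medians over 5 libraries, and *Klf4* led in 4 single libraries with CPA: NIP 36 h replicate 2 (32.7 CPM per kb), NIL 12 h replicate 2 (52.8), NIL 36 h replicate 2 (125) and NIL 36 h replicate 1 (45.4).

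Replicate 2 stood above replicate 1 for most members. In the fit over all 10 groups, 9 of the 10 genes were higher in replicate 2 than in replicate 1, where 24.7% of all tested genes were higher, and the members' median log2 difference was 2.88 against 0.0011 over all tested genes. *Nanog* differed by a log2 fold change of 4.21 ± 0.19 (± on a fold change is its standard error, taken as the size of the estimate over the root of the F statistic; adjusted p = 8.37e-10 by edgeR's quasi-likelihood test), *Utf1* by 4.36 ± 0.28, *Dppa5a* by 4.27 ± 0.26, *Pou5f1* by 3.84 ± 0.25 and *Tdgf1* by 3.65 ± 0.41. Smaller differences were found for *Klf4* (2.1 ± 0.20), *Zfp42* (2.1 ± 0.35), *Dppa4* (1.41 ± 0.24) and *Esrrb* (1.40 ± 0.18). *Lin28a* was at 0.18 ± 0.08 and did not pass (adjusted p = 0.0678). Only replicate numbers 2 and 1 exist, so these p-values reflect the spread over the 10 pairs and not over further replicate numbers. Of the 10 pairs of libraries with the same line, time and treatment, replicate 2 was the higher in all 10 for 8 of these genes, in 9 for *Tdgf1* and in 7 for *Lin28a*.

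In NIL, 9 members were higher in replicate 2 (24.4% of all tested genes were), with *Pou5f1* at 4.11 ± 0.18, *Zfp42* at 2.93 ± 0.18, *Tdgf1* at 4.24 ± 0.25 and *Dppa4* at 2.24 ± 0.20. In NIP, 9 members were also higher in replicate 2 (13.8% of all tested genes were), with *Pou5f1* at 2.39 ± 0.34, *Zfp42* at 0.78 ± 0.22 (adjusted p = 0.016), *Tdgf1* at 1.26 ± 0.45 (adjusted p = 0.043) and *Dppa4* at 0.70 ± 0.18 (adjusted p = 0.00926). The NIP calls are the less firm ones. Leaving out each of the 10 NIP libraries in turn left 7 or 8 calls, with *Tdgf1* lost in 8 of 10, *Esrrb* in 3 and *Zfp42* and *Dppa4* in 2 each. As ratios, replicate 2 over replicate 1, *Pou5f1* ran from 3.31 to 10.9 in the 5 NIP pairs and from 12.5 to 28.2 in the 5 NIL pairs, and *Zfp42* from 1.04 to 3.09 in NIP and from 5.46 to 12.1 in NIL. *Klf4* ran from 2.88 to 15.1 in NIP and from 2.76 to 4.98 in NIL.

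Tested directly, the replicate difference was smaller in NIP than in NIL for 4 members, where 3.83% of all tested genes were. These were *Tdgf1* (difference of log2 fold changes, NIP minus NIL, -2.98 ± 0.58; adjusted p = 0.00597), *Zfp42* (-2.15 ± 0.29; adjusted p = 0.000331), *Pou5f1* (-1.73 ± 0.46; adjusted p = 0.0305) and *Dppa4* (-1.53 ± 0.27; adjusted p = 0.00313). The *Pou5f1* call was lost in 8 of 20 fits that left out 1 library, with an adjusted p of up to 0.112. *Dppa5a* (-1.21 ± 0.67), *Esrrb* (-0.78 ± 0.31), *Utf1* (-1.24, adjusted p = 0.594) and *Nanog* (-0.38, adjusted p = 0.902) did not pass, nor did *Klf4* and *Lin28a*. Without overlap between the 5 libraries of each replicate number, replicate 2 was above replicate 1 for *Pou5f1*, *Nanog*, *Klf4*, *Utf1* and *Dppa5a* in NIP (4.22% of tested genes) and for 8 members, all but *Klf4* and *Lin28a*, in NIL (7.09%).

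**Figure D2:**
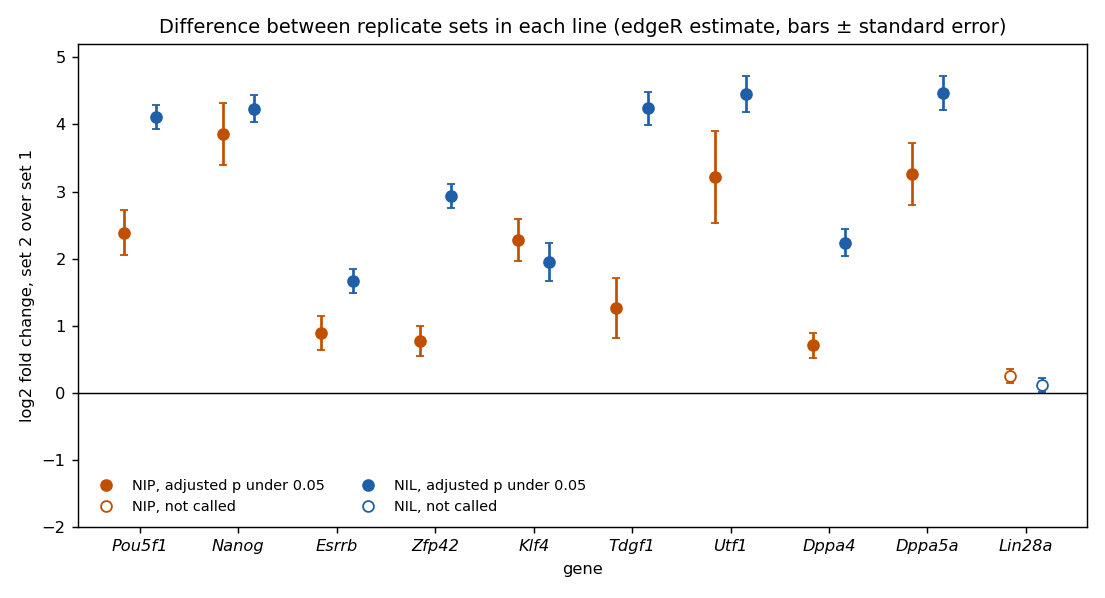
Log2 fold change of replicate 2 (set 2) over replicate 1 (set 1) for each gene, NIP left of NIL, as edgeR estimates with bars of 1 standard error. The estimates for *Tdgf1*, *Zfp42*, *Pou5f1* and *Dppa4* are lower in NIP than in NIL, while those of *Klf4* and *Nanog* have bars that overlap between lines.

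Most other stem cell genes were also higher in replicate 2 in the fit over all 10 groups, where 24.7% of all tested genes were. Of 27 tested genes in a list of further pluripotency genes, 23 were higher in replicate 2 and 0 lower (median 2.22), among them *Sox2*, the partner of Oct4 (2.77 ± 0.22, adjusted p = 4.07e-07), *Tdh*, a threonine dehydrogenase of mouse stem cells (2.85), and *Sall4*, a zinc finger factor (1.06). *Sox2* and *Gata4* below were named for their role after values were seen. In NIP the further pluripotency genes summed to 328 to 386 CPM in replicate 2 and 291 to 417 CPM in replicate 1, so these sums overlapped. In NIL they summed to 796 to 1193 CPM in replicate 2 and 324 to 520 CPM in replicate 1. All 10 epithelial genes of the stem cell surface were higher (median 1.38), such as *Cdh1*, E-cadherin, at 1.40 and *Krt8*, a keratin, at 1.54. All 18 proliferation genes were higher as well (median 1.44), with *Mki67* at 1.59 and *Top2a* at 1.38. Of 8 primed epiblast genes 4 were higher, such as the DNA methyltransferase *Dnmt3b* (1.24), while *Otx2* (-0.09) and *Lin28b* (-0.22) did not pass. Of 6 germ cell genes 2 were higher, *Tfap2c* (2.95) and *Kit* (1.48), and of 2 trophoblast genes 1.

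Markers of other cell types moved at the same time, again beside the 24.7% of all tested genes higher in replicate 2. Extraembryonic endoderm genes, which include the basement membrane genes *Col4a1* (2.17), *Lama1* (1.95) and *Lamc1* (1.85), had 16 of 18 higher and 1 lower (median 1.84). Their summed level was 4307 to 11534 CPM in NIP replicate 2, 685 to 1518 CPM in NIP replicate 1, 14852 to 44230 CPM in NIL replicate 2 and 4172 to 21638 CPM in NIL replicate 1. *Gata4*, a defining factor of that cell type, was detected in every library. It ran from 33.9 to 112 CPM in NIP replicate 2, 6.35 to 11.1 CPM in NIP replicate 1, 135 to 399 CPM in NIL replicate 2 and 40.9 to 196 CPM in NIL replicate 1. *Afp*, of the same list, went the other way. Its medians in replicates 2 and 1 were 0.378 and 0.834 CPM in NIP, and 1.67 and 4.93 CPM in NIL. Neuron and motor neuron genes went the other way, with 0 of 18 higher and 16 lower (median -0.48), such as *Nefm*, a neurofilament, at -0.66 and *Tubb3*, neuronal tubulin, at -0.37. The neuronal genes summed to 7405 to 12548 CPM in NIP replicate 2, 9271 to 14652 CPM in NIP replicate 1, 3278 to 9022 CPM in NIL replicate 2 and 6717 to 13987 CPM in NIL replicate 1. Neural progenitor genes had 6 of 12 higher (median 0.68), but the 4 with the highest level did not pass: *Vim* (0.04), *Nes* (-0.21), *Id1* (0.55) and *Id3* (0.74). Of 9 mesoderm genes 6 were higher and 1 lower. The part of these cell types in the members' levels was not tested. No gene of any list was at 0 in all libraries.

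By line, the lists are read beside the 13.8% of all tested genes higher in replicate 2 in NIP and the 24.4% in NIL. Further pluripotency genes had 11 of 27 higher and 2 lower in NIP (median 1.15) and 26 higher in NIL (median 2.64), and the difference between lines passed for 11 of 27, all smaller in NIP. Extraembryonic endoderm genes had 16 of 18 higher in NIP (median 2.23) and 14 higher and 1 lower in NIL (median 1.46), with 0 of 18 passing the test between lines by edgeR. Epithelial genes had 6 of 10 higher in NIP (median 1.14) and all 10 in NIL (median 1.51), with 1 of 10 passing between lines. Proliferation genes had 16 of 18 higher in NIP (median 1.55) and all 18 in NIL (median 1.34), with 1 of 18 passing between lines.

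**Figure D3:**
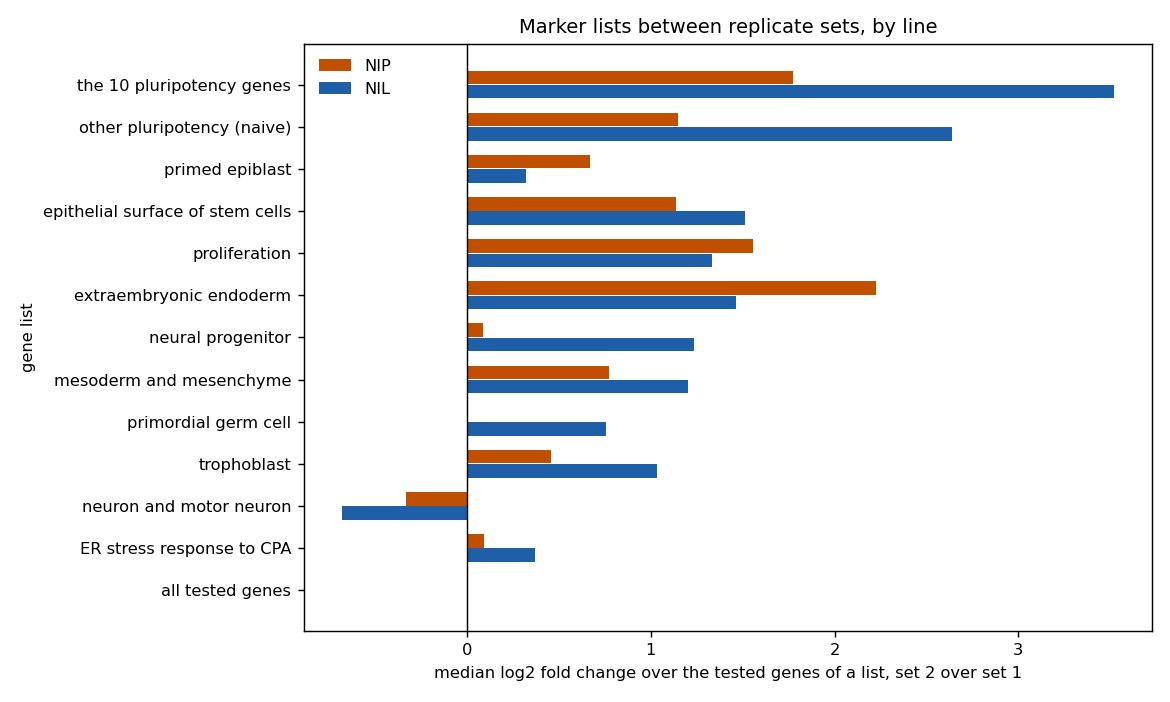
Median log2 fold change of replicate 2 (set 2) over replicate 1 (set 1) over the tested genes of each list, with NIP and NIL as separate horizontal bars and the list names down the page. The 10 pluripotency genes lie at 1.77 in NIP and 3.52 in NIL, and the neuronal list lies below 0 in both.

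Between the lines, most members were lower in NIP than in NIL. Averaged over the 5 conditions, 8 of 10 genes were lower in NIP and 0 higher, where 24% of all tested genes were lower, and the members' median log2 fold change was -3.92 against 0.01 over all tested genes. *Utf1* was lower by a log2 fold change of -5.06 ± 1.10, *Pou5f1* by -4.86 ± 0.97 (adjusted p = 0.00106), *Nanog* by -4.59 ± 1.05, *Dppa5a* by -4.42 ± 1.06 and *Tdgf1* by -4.34 ± 0.94. Among these 8 genes *Esrrb* had the smallest error (-3.51 ± 0.44, adjusted p = 2.45e-05), and *Zfp42* (-2.72 ± 0.62) and *Klf4* (-1.85 ± 0.59, adjusted p = 0.0185) changed less. *Dppa4* (0.38 ± 0.46) and *Lin28a* (-0.05 ± 0.10) did not pass. With the replicate number as a block, the same 8 were lower (29.5% of all tested genes), and *Dppa4* was higher in NIP at 0.61 ± 0.24 (adjusted p = 0.0403; 32% of all tested genes were higher). That *Dppa4* call was lost in 12 of 20 fits that left out 1 library. The block takes the replicate difference as the same in both lines. The test above found that difference smaller in NIP for *Tdgf1*, *Zfp42*, *Pou5f1* and *Dppa4*, so their values with the block carry that limit.

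The same 8 genes were lower in NIP in all 5 conditions of both replicate numbers. As a ratio of NIL over NIP at the same condition, *Pou5f1* ran from 22.7 to 52.6 in replicate 2 and from 3.16 to 27.4 in replicate 1, and *Esrrb* from 6.30 to 29.4 in replicate 2 and from 4.81 to 37.5 in replicate 1. *Zfp42* ran from 7.88 to 13.5 in replicate 2 but only from 1.06 to 4.02 in replicate 1. *Dppa4* was higher in NIP in 5 of 5 conditions of replicate 1 (ratio NIL over NIP 0.277 to 0.619) and in 2 of 5 of replicate 2 (0.795 to 1.55). Its libraries did not overlap between lines in replicate 1, as in 13% of tested genes. NIL lay above NIP without overlap for 7 members in replicate 2 (all but *Klf4*, *Dppa4* and *Lin28a*; 11.7% of tested genes) and for 7 in replicate 1 (all but *Zfp42*, *Dppa4* and *Lin28a*; 11.9%). Over both replicate numbers together, *Esrrb* alone of the 10 did so (3.62% of tested genes).

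**Figure D4:**
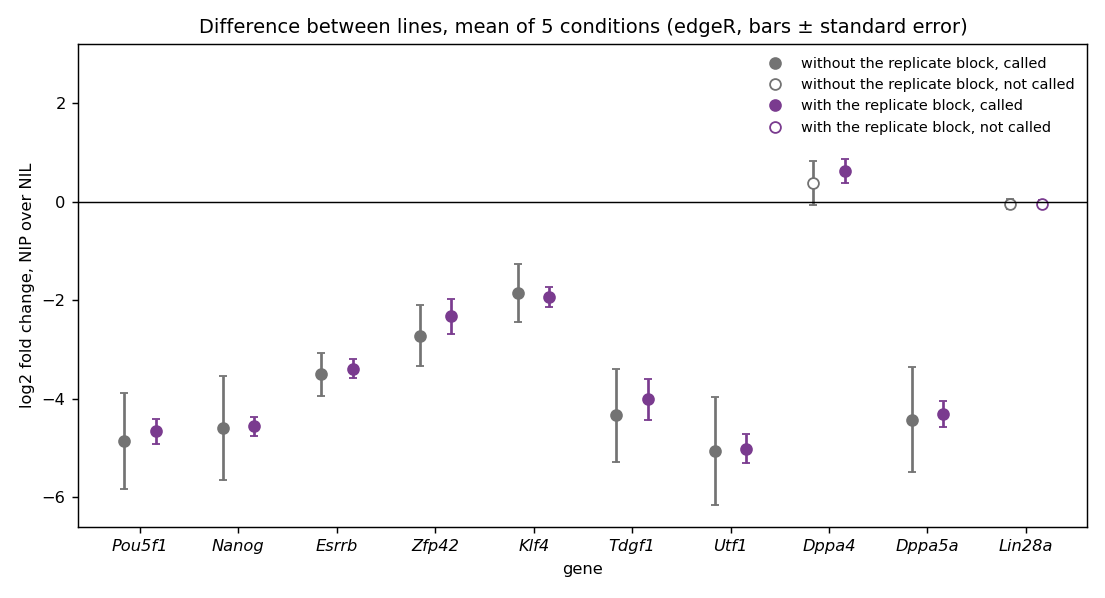
Log2 fold change of NIP over NIL for each gene, averaged over the 5 conditions, in the fits without and with the replicate block, with bars of 1 standard error. In both fits 8 of the 10 genes lie below 0 and *Lin28a* lies next to 0, and the bars are shorter with the block.

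Without the block, single conditions carried fewer calls than the mean over them. *Esrrb* passed at 12 h without CPA (-3.36 ± 0.97, adjusted p = 0.0378; 4.28% of tested genes lower), at 36 h with CPA (-4.62 ± 1.05, adjusted p = 0.00925; 6.56% lower) and at 36 h without CPA (-3.91 ± 1.02, adjusted p = 0.024; 4.56% lower). These 3 calls were lost in 3, 2 and 3 of the 4 fits that left out 1 library of the comparison, and both calls at 36 h were lost without both libraries richest in *Rn45s*. At 0 h (4.61% lower) and at 12 h with CPA (3.39% lower) 0 members passed edgeR's test, with 2 at an unadjusted p under 0.05 in each, and 2 and 1 by DESeq2. With the block, 6 members were lower in NIP at 0 h (12.1% of tested genes), 9 at 12 h with CPA (12.5%), 7 at 12 h without CPA (13.5%), 8 at 36 h with CPA (18.2%) and 7 at 36 h without CPA (14.7%). *Pou5f1*, *Nanog*, *Esrrb*, *Tdgf1*, *Utf1* and *Dppa5a* were in all 5 of these counts, and *Pou5f1* lay between -5.16 ± 0.55 and -3.96 ± 0.56. *Lin28a* was lower in NIP at 12 h with CPA (-0.56 ± 0.18, adjusted p = 0.0268) and higher at 36 h without CPA (0.51 ± 0.18, adjusted p = 0.0405; 14.1% of tested genes higher), calls lost in 2 of 4 and 4 of 4 fits that left out 1 library.

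Marker lists differed between the lines too. Their counts are read beside the 24% of all tested genes lower in NIP without the block. With the block 29.5% were lower and 32% higher. Of the further pluripotency genes 21 of 27 were lower in NIP and 1 higher (median -2.91; 25 lower with the block), with *Sox2* at -4.00 ± 0.76 and *Sall4* at -1.07. The gene that was higher was *Trim71*, an RNA-binding ubiquitin ligase and let-7 target (0.58, adjusted p = 0.0444). *Lin28b*, the paralog of *Lin28a*, was higher in NIP by 2.45 ± 0.12 (adjusted p = 3.52e-09), the 1 primed epiblast gene of 8 to go that way, while the other 7 were lower, such as *Otx2* (-6.88). All 10 epithelial genes (median -2.37), all 18 proliferation genes (-2.18) and all 18 extraembryonic endoderm genes (-2.12) were lower in NIP. Of 18 neuronal genes 7 were higher and 3 lower (median 0.21). The part of these cell types in the line difference of the members was not tested.

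With CPA, 1 of the 10 genes, *Lin28a*, passed without the block (21.1% of all tested genes did, in either direction) and 2, *Lin28a* and *Klf4*, with it (38.9%), and they went in opposite directions. *Klf4* was higher with CPA in 7 of 8 pairs of libraries matched for line, time and replicate number, with ratios from 0.972 to 4.8. Averaged over lines and times, its log2 fold change was 1.29 ± 0.65 without the block, which did not pass (adjusted p = 0.179), and 1.18 ± 0.22 with it (adjusted p = 0.00125; 18.2% of tested genes higher with the block). In NIL at 36 h, where the 381 and 138 CPM with CPA in replicates 2 and 1 stood against 144 and 28.8 CPM without, *Klf4* passed with the block (1.86 ± 0.43, adjusted p = 0.0137; 7.25% of tested genes higher) and not without it (1.60 ± 1.29, adjusted p = 0.538). That call was lost in 3 of 4 fits that left out 1 library, and without both libraries richest in *Rn45s*, 1 of which is NIL 36 h with CPA replicate 2. The 1 pair with no rise was NIP at 36 h in replicate 1, with 6.60 CPM with CPA and 6.79 CPM without. The untreated library of that pair is the one richest in *Rn45s*, at 38.6% of gene reads against 11.7% in the CPA library. By the plain total the pair did rise, with 6.63 CPM with CPA and 4.44 CPM without, so this exception depends on the scaling.

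*Lin28a* fell with CPA. It was lower in 7 of 8 pairs, with ratios from 0.362 to 1.08, and its mean log2 fold change was -0.64 ± 0.11 (adjusted p = 0.00126; 11.3% of tested genes lower) and the same with the block (-0.64 ± 0.09, adjusted p = 3.76e-05; 20.7% lower). In NIP at 12 h, the 104 and 72.9 CPM with CPA in replicates 2 and 1 stood against 195 and 201 CPM without, a log2 fold change of -1.16 ± 0.22 (adjusted p = 0.00959; 1.74% of tested genes lower). That call was lost in 3 of 4 fits that left out 1 library without the block, and in 0 of 4 with it. In NIP at 36 h it was -0.81 ± 0.22 (adjusted p = 0.0773; 0.994% lower), and -0.82 ± 0.18 with the block (adjusted p = 0.00797; 5.15% lower), a call lost in 1 of 4 and also without both libraries richest in *Rn45s*, 1 of which is NIP 36 h replicate 1. In NIL the change was -0.44 ± 0.22 at 12 h and -0.14 ± 0.22 at 36 h, and neither passed. The difference in response between the lines, NIP minus NIL, was -0.72 ± 0.31 at 12 h and -0.68 ± 0.31 at 36 h. Neither passed edgeR's test after adjustment: 0 members and 0% of all tested genes did at either time, with 1 member, *Lin28a*, at an unadjusted p under 0.05 in each and 0 by DESeq2.

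The other 8 genes did not pass edgeR's test under CPA with or without the block, and over all pairs their directions were mixed. *Pou5f1* was higher with CPA in 4 of 8 pairs and lower in 4 (ratios 0.284 to 2.46), and *Zfp42* was higher in 6 of 8 (0.476 to 3.44). In NIL at 36 h, however, all 8 had a positive log2 fold change, from 0.13 (*Dppa5a*) to 1.32 (*Tdgf1*) without the block and from 0.17 (*Esrrb*) to 1.38 (*Zfp42*) with it, where the lowest adjusted p was 0.136 (*Nanog*). For 7 of the 8 the CPA library was the higher in both replicates there, with ratios in replicates 2 and 1 of 1.43 and 2.46 for *Pou5f1*, 1.41 and 2.05 for *Nanog*, and 2.21 and 3.44 for *Zfp42*. *Esrrb*, at 1.41 and 0.777, was the exception. The replicate 2 library with CPA there is among those richest in *Rn45s*. By the plain total, *Dppa5a* and *Utf1* were lower with CPA in replicate 2, *Dppa5a* at 27.7 CPM with and 33.8 CPM without. For these genes the direction in replicate 2 thus depends on the scaling, and the plain total includes the *Rn45s* reads. *Rn45s* took 38.3% of gene reads in that CPA library and 20.4% in its untreated partner. The rest of the 7 stayed higher by the plain total, such as *Pou5f1* at 47.2 CPM with and 42.6 CPM without. Without the block 0 members passed edgeR's test in NIP at 36 h (1 at an unadjusted p under 0.05, 1 by DESeq2), in NIL at 12 h (0 and 0; 2.21% of tested genes passed) and in NIL at 36 h (0 and 0; 0.98%). The treatment itself was visible in the same libraries, where all 10 ER stress genes rose (median 2.75), led in level by *Hspa5*, the ER chaperone BiP (2.66). Of the further pluripotency genes 1 of 27 rose, 0 fell and 4 rose with the block. Averaged over lines and times, 18.2% of all tested genes rose with the block, and 21.1% passed in either direction without it. Of the epithelial genes 1 of 10 rose, and 5 with the block, such as *Krt8* (0.66 ± 0.18) and *Krt18* (0.82 ± 0.21). Extraembryonic endoderm genes had 0 of 18 called in either fit (median 0.48). Their summed level beside *Klf4* was 44230 and 21638 CPM with CPA in NIL replicates 2 and 1 at 36 h, against 25058 and 7507 CPM without, and in NIP 11534 and 685 CPM with CPA, against 5079 and 1013 CPM without. Of 18 neuronal genes 9 fell (15 with the block), where 11.3% of all tested genes fell (20.7% with the block). The part of these cell types in the CPA values of *Klf4* and *Lin28a* was not tested.

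**Figure D5:**
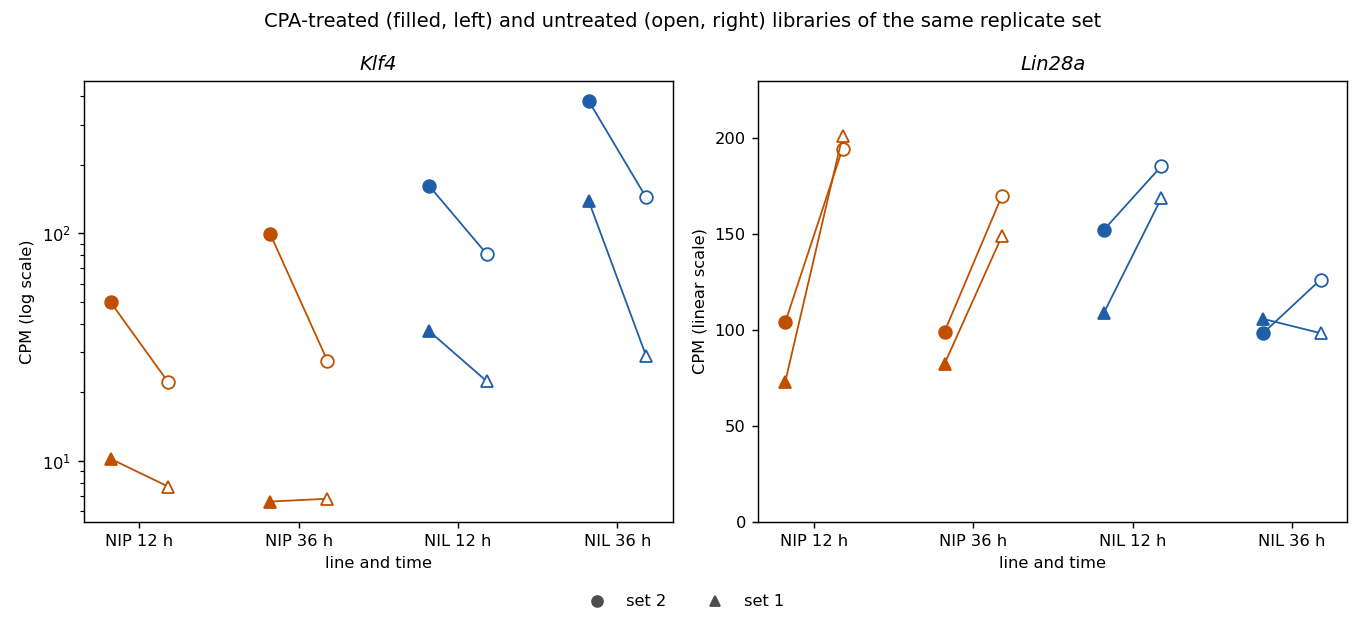
*Klf4* (log axis) and *Lin28a* (linear axis) in CPM for each pair of libraries of the same line, time and replicate number, with the CPA library left of the untreated one and joined by a line. *Klf4* is higher with CPA in 7 of 8 pairs and *Lin28a* lower in 7 of 8.

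Over 36 h without CPA few changes passed. *Lin28a* in NIL was at 219 and 268 CPM at 0 h, at 186 and 169 CPM at 12 h and at 126 and 98.4 CPM at 36 h (replicates 2 and 1). At 36 h against 0 h its log2 fold change was -1.12 ± 0.22 (adjusted p = 0.15; 0.00676% of tested genes lower), and -1.14 ± 0.18 with the block (adjusted p = 0.00648; 0.196% lower), a call lost in 3 of 4 fits that left out 1 library. By edgeR without the block 0 members passed in any of the 4 comparisons with 0 h, and 0% to 1.29% of all tested genes did. At an unadjusted p under 0.05, *Lin28a* in NIL at 36 h was the only member. DESeq2 called 1 member in NIL at 36 h and 0 in the other 3. For *Pou5f1* the change at 36 h was 1.35 ± 2.38 in NIP and 0.31 ± 1.74 in NIL, and with the block 0.88 ± 0.74 in NIP and 0.07 ± 0.40 in NIL.

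Genes with the pattern most like *Pou5f1* were found by Pearson's r of log2 CPM within each replicate number (10 libraries each), averaged over both. The 10 libraries of a replicate number fall into lines, so this measures the likeness of the line difference above all, and it is a description. Among the nearest genes that are not members were *Hs3st1* (0.976), *Gpc3* (0.976), *Flrt3* (0.972), *Npnt* (0.971), *Nup62cl* (0.968), *Axin2* (0.967) and *Tdh* (0.966). *Tdh* is on the list of further pluripotency genes, *Gpc3* encodes a cell surface glypican and *Axin2* a Wnt pathway inhibitor. Among 14791 genes the members ranked from *Nanog* at 52 (0.951) through *Utf1* at 157, *Dppa5a* at 388, *Zfp42* at 580, *Esrrb* at 739, *Tdgf1* at 773 and *Klf4* at 1310 (0.808) down to *Lin28a* at 6762 (0.05) and *Dppa4* at 9869 (-0.36). The first 7 thus shared the pattern of *Pou5f1* to different degrees, and *Lin28a* and *Dppa4* did not follow it.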

How the data were processed

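Total RNA was measured in 20 libraries of mouse motor neurons, 2 in each of 10 groups. Per the labels, RNA was taken with a column kit and DNase, and libraries were made by KAPA RNA HyperPrep after removal of ribosomal RNA, so reads from precursors are kept. The authors deposited whole-number read counts for 24421 gene symbols and 5 summary lines per library. Per the submitters' processing notes, the build was GRCm38 (mm10) and the tools included Bowtie2 2.3.2, TopHat2 2.1.1, Picard and HTSeq 0.6.1p1. The strand setting and the annotation release are not given in the sources used here, and the usual HTSeq count leaves out reads that map to several places. Exon lengths, overlaps and shared 50-base stretches came from the GENCODE annotation of GRCm38, and promoters from RefSeq.

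Genes were filtered with filterByExpr by group (14792 kept) and scaled with TMM in edgeR 4.0.16 (R 4.3.3, limma 3.58.1). A single quasi-likelihood fit with robust estimates and a mean per group (10 residual degrees of freedom, coefficient of variation 27.5%) gave the tests, with p-values adjusted by Benjamini and Hochberg over all tested genes and a threshold of 0.05. Adding the replicate number as a block (9 degrees of freedom, 15.7%) was an alternative, and it is the fit behind the comparison of replicate 2 with replicate 1; a fit with that difference per line had 8. The numbers come from the titles. Deviations of same-numbered libraries correlated in each of 45 pairs of groups (r 0.243 to 0.763, median 0.467), so the numbers pair libraries, and values with the block stand beside the results they change. Counts of the libraries within each group differed beyond sampling noise (chi-square per degree of freedom 30.1 to 316).

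Standard errors of edgeR fold changes are the size of the estimate over the root of F, which is unreliable for estimates near 0 and few reads. CPM uses the scaled library sizes, log2 CPM a prior count of 2, and a library at 0 is given the level of 3 reads as its upper limit. Poisson intervals are exact, at 95%. The fits were tested on simulated counts with known changes. The 10 genes and the 11 gene lists were chosen with earlier results of these data known, the genes shown from each list are up to 4 with the highest mean CPM, and the genes like Pou5f1 come from the 8 with the highest mean r, of which 1 is not reported here; other list genes named were picked after their values were seen. Alternatives were RLE scaling, scaling without Rn45s, DESeq2 1.42.0, no low-count filter, fits on only the groups compared, leaving out each library and leaving out both libraries richest in Rn45s.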

Additional observations from a re-analysis of the deposited data

Results flagged for a closer look

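For 4 of the 10 genes the difference between replicate 2 and replicate 1 differed between the lines, by a test of the difference itself in edgeR's quasi-likelihood fit, adjusted over all tested genes. *Tdgf1*, the Nodal co-receptor, was higher in replicate 2 by a log2 fold change of 1.26 in NIP and 4.24 in NIL, a difference of -2.98 ± 0.58. *Zfp42*, the naive state marker Rex1, was higher by 0.78 in NIP and 2.93 in NIL, a difference of -2.15 ± 0.29. *Pou5f1* was higher by 2.39 in NIP and 4.11 in NIL, a difference of -1.73 ± 0.46. *Dppa4* was higher by 0.70 in NIP and 2.24 in NIL, a difference of -1.53 ± 0.27. The NIP levels behind *Tdgf1* are at or under 0.903 CPM, and the cause of these differences was not tested.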

How the results depend on the processing

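The counts of members called in the comparison of replicate 2 with replicate 1 (9 over all groups, 9 in NIP, 9 in NIL) and for the mean line difference (8) stayed within 1.5 times under RLE scaling, scaling without Rn45s, DESeq2, no low-count filter and without both libraries richest in Rn45s. Leaving out 1 library gave 9 to 10 calls over all groups, 7 to 8 in NIP, 9 in NIL, 3 to 4 for the difference between lines, and 8 to 8 for the mean line difference (8 to 9 with the block). The replicate block raised the counts for single conditions and for CPA. For NIP against NIL, members called with the block were 6 at 0 h, 9 at 12 h with CPA, 7 at 12 h without, 8 at 36 h with CPA and 8 at 36 h without, against 0, 0, 1, 1 and 1 without the block. With the block, CPA gave 2 calls on average, 1 in NIP at 36 h and 1 in NIL at 36 h, and 36 h against 0 h gave 1 in NIL.

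RLE scaling and scaling without Rn45s, each with the block, gave these same counts. With the block and no low-count filter they were 6, 9, 7, 8 and 7 for the line comparisons and 2, 1, 1 and 1 for the others. With the block in DESeq2 they were 8, 8, 7, 8 and 8, then 2, 2, 1 and 1, and 36 h against 0 h gave 1 in NIP. With the block and without both libraries richest in Rn45s they were 6, 9, 7, 8 and 7, then 2, 0, 0 and 1, so that the single calls of *Lin28a* in NIP and *Klf4* in NIL at 36 h with CPA were lost. These combinations with the block were chosen after the data were seen.

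Without the block, DESeq2 called 2 members at 0 h, 1 at 12 h with CPA, 3 at 12 h without, 4 at 36 h with CPA, 1 for CPA in NIP at 36 h and 1 for 36 h against 0 h in NIL. With no filter 0 passed between lines at 12 h or 36 h without CPA. A fit on only the groups compared and a fit without both libraries richest in Rn45s each gave 1 at 12 h with CPA, 0 at 36 h with CPA and 0 at 36 h without. Leaving out 1 library without the block gave between 0 and 1 calls in each line comparison of a single condition and each CPA comparison. With the block it gave 4 to 6 at 0 h, 4 to 9 at 12 h with CPA, 5 to 7 at 12 h without, 6 to 8 at 36 h with CPA, 2 to 8 at 36 h without (2 without NIP 36 h replicate 2), 2 to 3 for CPA on average, 0 to 2 in NIP and 0 to 1 in NIL at 36 h with CPA, 0 to 1 for 36 h against 0 h in NIL, and 0 to 1 for the difference in CPA response at 36 h. A lone library left in a group is assumed to vary like the other groups. Without NIL 36 h replicate 2 and without the block, the line difference at 36 h changed sign, to 0.0858 for *Nanog* (-10.7 to 0.0858 over the libraries left out) and to 0.165 for *Dppa5a* (-11.4 to 0.165). That fit set NIL replicate 1 alone against both NIP replicates, so it was not matched for replicate number. Within replicate 1 at 36 h without CPA, NIP was at 0 for both genes, against 0.651 CPM (*Nanog*) and 0.977 CPM (*Dppa5a*) in NIL. The cause of the change in sign was not tested. In NIP the reads per member and library limit precision, with 0 to 10 reads of *Nanog*, *Utf1*, *Dppa5a*, *Tdgf1* and *Pou5f1* in replicate 1.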
